A study of Mus musculus with 9 samples.

Results

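Class I phosphatidylinositol 3-kinases (PI3Ks) are made of a catalytic and a regulatory subunit, and the transcripts of all of these subunits were followed in mouse long-term hematopoietic stem cells (LT-HSCs) with and without deletion of class IA catalytic genes. The genes were chosen by symbol: the catalytic subunits Pik3ca, Pik3cb, Pik3cd and Pik3cg, the regulatory subunits Pik3r1, Pik3r2, Pik3r3, Pik3r5 and Pik3r6, and the inhibitor Pik3ip1. They are 10 of the 47643 genes in the count table, and all 10 passed the filter on low counts. Of the 4 catalytic genes, 3 are targeted in the mice, and Pik3cg is the catalytic gene that was left intact.

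Class IA enzymes pair p110α (Pik3ca), p110β (Pik3cb) or p110δ (Pik3cd) with a p85-type regulatory subunit, which holds the catalytic subunit inactive and stable until it docks on phosphorylated tyrosines of receptors such as KIT or of adaptor proteins. The class IB enzyme p110γ (Pik3cg) pairs with p101 or p84 and is switched on by the Gβγ subunits released from G protein-coupled receptors such as the chemokine receptor CXCR4. Both classes make the membrane lipid PIP3, which recruits the kinase AKT, and in blood stem cells this signal is known for its role in self-renewal, survival and differentiation.

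Donor marrow was of the C57BL/6 strain. TKO donors carried Mx1-Cre and were Pik3cd-/- in the germline, with Pik3ca lox/lox and Pik3cb lox/lox alleles that Cre excises. δKO donors were littermates without Mx1-Cre, so that they lacked Pik3cd and kept floxed, unexcised Pik3ca and Pik3cb. WT donors were WT;Mx1-Cre. For every group, whole marrow cells were given to lethally irradiated B6.SJL recipients aged 6 to 8 weeks, and after engraftment all recipients received pIpC (2 injections of 250 μg, 48 hours apart), which turns on the interferon-responsive Mx1 promoter in many cell types. Marrow of the 7 recipients of a group was pooled before staining, and donor-derived LT-HSCs were sorted 4 weeks after pIpC by a gate on cells that lack lineage markers, Flk2 (the Flt3 product) and CD48 and carry cKit, Sca1 (the Ly6a product) and CD150. WT carried Cre and δKO did not, and δKO carried floxed alleles and were littermates of TKO. Loss of Pik3cd, absence of Cre, the floxed alleles and the cross therefore cannot be told apart in δKO against WT. Floxed excision and presence of Cre cannot be told apart in TKO against δKO.

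There were 3 libraries of each genotype, with 31300343 to 60386097 counts on genes, and 1 δKO library is called unnumbered because its number in the table matches no label. Although marrow was pooled, Xist differed by at least 107-fold between libraries of each genotype, and how the libraries relate to the recipients is not stated, so p-values measure only the spread between these libraries. All 14 HSC marker genes were detected in every library. Their sum was 1668 to 2119 CPM (counts scaled to library size) in WT, 1778 to 3987 in δKO and 2534 to 3007 in TKO, so that every TKO library lay above every WT library, and Ly6a was at 2.15 CPM in δKO replicate 1 against 10.2 to 37.3 in the others. The 8 genes of cells that the gate leaves out summed to 52.7 to 133 CPM in WT, 13.2 to 77.1 in δKO and 27.6 to 51.8 in TKO, with every TKO library below every WT library. Flt3 (7.06 to 115 CPM) and Cd48 (5.82 to 23.2 CPM) had counts in all libraries. Of 8 T and NK cell markers Cd3e, Cd3g and Cd8a were at 0 in all. Nkg7, Lck and Cd4 had counts in all libraries, with Nkg7 highest (3.75 to 231 CPM), and Cd3d and Il2rb in some, and the list summed to 83.5 to 237 CPM in WT, 55.4 to 195 in δKO and 34.6 to 75.0 in TKO. δKO replicate 1 stood apart, with 18180 genes detected against 18500 to 22703 in the others, and it held the highest or the lowest value of the 9 libraries for 52.7% of all genes tested. The unnumbered δKO library came next, with 18500 genes detected and an extreme value for 36.8% of genes, against 10.8% to 25.2% in each of the other 7 libraries. For the PI3K genes δKO replicate 1 was extreme in all 10 cases, as the highest library for Pik3ca, Pik3cb, Pik3cg, Pik3r1 and Pik3r2 and the lowest for Pik3cd, Pik3r3, Pik3r5, Pik3r6 and Pik3ip1. Log2 differences and correlations that rest on δKO are therefore given with and without replicate 1.

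Promoter windows from RefSeq (GRCm38.p6, the mm10 build), which run from 250 bases before to 50 after a start site, were found for 9 of the 10 genes (15 windows). The windows of Pik3cg, Pik3r1 and Pik3cb are shown because these genes had the 3 highest pairwise correlations over the 9 libraries (the window nearest the 5′ end of each gene, 5′ to 3′ on its strand). Capitals mark exact matches on either strand to GGGCGG (the GC box) or CCAAT. The windows lie at chr12:32208610-32208909 for Pik3cg, chr13:101768168-101768467 for Pik3r1 and chr9:99140162-99140461 for Pik3cb, all on the minus strand.
Pik3cg: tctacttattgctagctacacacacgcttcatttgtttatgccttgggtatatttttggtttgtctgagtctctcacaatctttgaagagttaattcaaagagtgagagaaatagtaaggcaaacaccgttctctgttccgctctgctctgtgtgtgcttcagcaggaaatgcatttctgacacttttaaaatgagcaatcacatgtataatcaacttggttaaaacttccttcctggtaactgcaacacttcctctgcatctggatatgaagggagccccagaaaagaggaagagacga
Pik3r1: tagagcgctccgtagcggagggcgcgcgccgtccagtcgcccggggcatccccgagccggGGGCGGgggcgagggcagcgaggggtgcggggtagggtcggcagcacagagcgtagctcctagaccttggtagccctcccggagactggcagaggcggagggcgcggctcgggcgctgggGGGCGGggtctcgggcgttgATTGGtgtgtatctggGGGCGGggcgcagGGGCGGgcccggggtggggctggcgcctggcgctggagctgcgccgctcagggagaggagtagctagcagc
Pik3cb: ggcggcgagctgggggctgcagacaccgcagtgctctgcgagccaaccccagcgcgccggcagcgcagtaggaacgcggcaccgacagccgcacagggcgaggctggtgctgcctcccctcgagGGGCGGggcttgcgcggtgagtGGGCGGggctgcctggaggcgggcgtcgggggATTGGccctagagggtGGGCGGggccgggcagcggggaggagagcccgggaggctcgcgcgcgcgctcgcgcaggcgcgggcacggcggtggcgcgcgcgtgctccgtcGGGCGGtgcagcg
The Pik3r1 and Pik3cb windows were 75.7% and 79.0% G or C and each held 4 GC boxes and 1 CCAAT match. The Pik3cg window was 40.7% G or C and held neither, and a second Pik3cg window, which overlaps it downstream (chr12:32208421-32208720), was 44.0% G or C with 1 match to the FOXO motif GTAAACA. Among 32851 promoter windows of the same length, 35.7% held GGGCGG, 37.4% held CCAAT and 3.65% held GTAAACA, and the median content of G and C was 52.7%. The windows printed held none of the other motifs searched in the same way, which were the E-box CACGTG (in 7.15% of all windows), the RUNX motif TGTGGTT (in 5.27%), the ETS motif CCGGAAGT (in 3.89%), the AGATAAG motif of GATA factors (in 3.04%) and the CRE motif TGACGTCA (in 1.79%). A second Pik3r1 window (chr13:101692581-101692880), which is not printed, was 43.7% G or C and held none of these motifs. The Pik3cg windows thus differed from the printed Pik3r1 and Pik3cb windows in base composition and in these matches, but were close to the second Pik3r1 window in base composition.

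Levels of different genes were compared per length, as CPM (edgeR's counts scaled by library size and TMM factors) per kilobase of the gene's exons. In WT LT-HSCs the p85α gene Pik3r1 had the highest level, with 23.0 ± 2.30 CPM per kb (SD, n = 3). The catalytic genes Pik3cg and Pik3cd followed with 19.8 ± 5.43 and 18.6 ± 3.28 CPM per kb, and the ranges of these 3 genes overlapped between neighbors. Pik3ip1, Pik3cb and Pik3ca formed a lower tier of 9.24 ± 2.10, 7.81 ± 1.41 and 6.28 ± 1.11 CPM per kb. Each overlapped its neighbor, but Pik3ip1 and Pik3cb did not with the longest transcript as length (12.4 to 19.2 and 6.89 to 9.82). Every Pik3ip1 library lay below every Pik3cd library. Pik3r5, Pik3r2, Pik3r6 and Pik3r3 had 3.14, 2.35, 1.38 and 0.544 CPM per kb, with Pik3r5 below Pik3ca and Pik3r3 below Pik3r6 in all libraries. Leukocyte-type catalytic genes (Pik3cg, Pik3cd) were thus higher than the broadly expressed ones (Pik3ca, Pik3cb) in the WT libraries. In δKO the only neighbors in the order that did not overlap were Pik3cg (32.4 ± 16.1) and Pik3cd (10.7 ± 4.26), and in TKO Pik3cg, Pik3cd, Pik3ip1, Pik3ca and Pik3cb were separated step by step (16.1, 11.6, 9.45, 6.63 and 4.30 CPM per kb). This order depended on the length used. With the longest transcript, the mean of Pik3ip1 lay between those of Pik3cg and Pik3cd in δKO and in TKO. Pik3ip1 and Pik3cd then overlapped, at 10.8 to 19.6 and 7.81 to 18.5 in δKO and 14.2 to 17.0 and 14.5 to 14.9 in TKO. The TKO mean of Pik3r2 was then above that of Pik3cb (5.61 and 4.78).

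Compared between genotypes, no PI3K gene passed the threshold of an adjusted p under 0.05 and more than 2-fold by edgeR's quasi-likelihood test, in any comparison. Across all 18205 genes tested, 0.00549% were called between TKO and WT, 0% between TKO and δKO and 0.00549% between δKO and WT. By DESeq2 on all 9 libraries no PI3K gene was called either, beside 0.657%, 3.1% and 1.04% of all genes. DESeq2 fitted to the 2 groups compared called 1 PI3K gene in TKO against WT (Pik3r6, lower in TKO; 3.08% of all genes were called) and none in the other comparisons (1.52% and 1%). DESeq2 without δKO replicate 1 called Pik3r6, again lower in TKO, against WT (1.95% of all genes were called) and against δKO (5%), and no PI3K gene in δKO against WT (0.796%). At an unadjusted p under 0.05 in edgeR, 1 of the 10 genes was lower in TKO than in WT (Pik3cb; 2.5% of all genes were) and none higher (1.68%), beside 4.19% of all genes in either direction. This count was 0 in the fits without WT replicate 1, WT replicate 3 or any 1 of the TKO libraries. Between TKO and δKO, 3 were lower in TKO (Pik3cb, Pik3cg and Pik3r1; 5.56% of all genes) and none higher (4.6%), beside 10.2% in either direction. Between δKO and WT, 2 were higher in δKO (Pik3r1 and Pik3r2; 3.65%) and 1 was lower (Pik3cd; 3.36%), beside 7.01% in either direction. DESeq2 gave 1, 4 and 2 genes at that p (5.62%, 11.5% and 8.65% of all genes), and they were partly other genes. They were Pik3r6 and not Pik3cb in TKO against WT, and Pik3cb, Pik3cg, Pik3r1 and Pik3r6 in TKO against δKO. In δKO against WT they were Pik3cd and Pik3r2. Without δKO replicate 1 these counts in edgeR were 3 (Pik3cb, Pik3cd and Pik3r6; 7.61% of all genes), 1 (Pik3r6; 12.2%) and 0 (5.65%), and no PI3K gene was called (0.0204%, 0% and 0.00511% of all genes were). Without the unnumbered δKO library they were 2, 4 and 4 (5.81%, 9.63% and 8.87% of all genes). With the replicate number as a block they were 1, 4 and 3, beside 4.81%, 6.47% and 5.52% of all genes. The median log2 fold change of the 10 genes was −0.25, −0.28 and −0.050 in the same order, and of all genes 0.017, −0.055 and 0.046. Without δKO replicate 1 the medians were −0.25, −0.083 and −0.0034, and of all genes 0.010, 0.073 and −0.046. The comparisons share libraries, so their counts are not independent of each other.

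**Figure D1:**
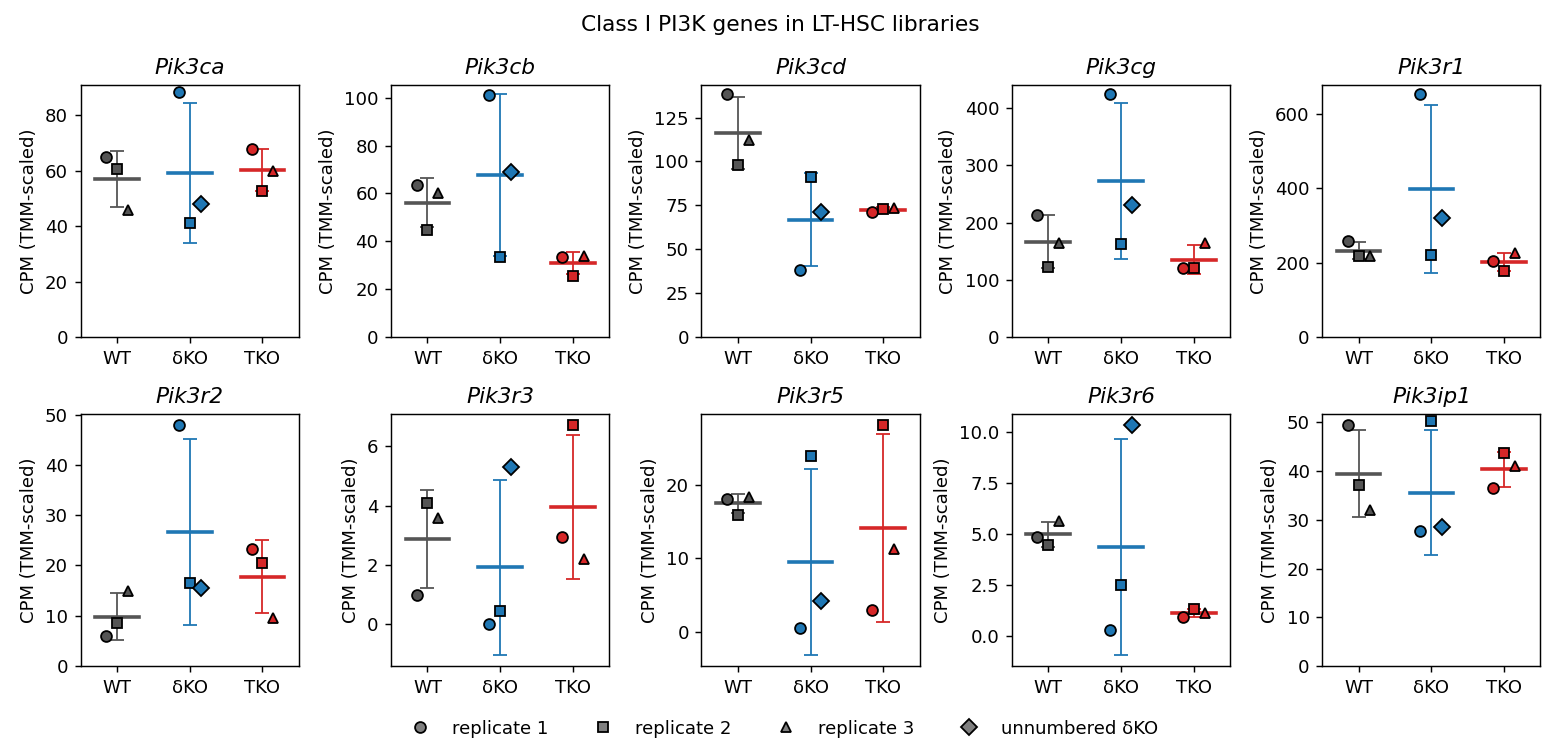
TMM-scaled CPM of each PI3K gene (vertical axes, separate linear scales) in the 9 LT-HSC libraries by genotype. Symbols mark the replicate, horizontal lines the mean and bars 1 SD (n = 3); the 3 TKO libraries lie below all WT libraries for Pik3cb, Pik3cd and Pik3r6, and δKO replicate 1 lies at the top or the bottom of every panel.

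Of the targeted genes, Pik3cb and Pik3cd transcripts were lower in TKO than in WT in every library and Pik3ca transcripts were not. Pik3ca (ENSMUSG00000027665.13, chr3:32397671-32468486 of mm10) encodes the broadly expressed p110α. CPM values were 65.0, 60.6 and 45.8 for WT replicates 1 to 3, 88.2, 41.3 and 48.0 for δKO 1, 2 and unnumbered and 68.0, 52.8 and 59.8 for TKO 1 to 3. All groups overlapped, with δKO replicate 1 highest. TKO differed from WT by 0.076 on the log2 scale (standard error, SE, 0.331), with a 95% interval from −0.65 to 0.80. Exon 1, the excised exon of Pik3ca, makes up 4.56% of the length of the principal transcript in the annotation, and reads were counted over whole genes, so these values do not measure excision. Exon 2, which is excised from Pik3cb, makes up 1.44% of its principal transcript, if the study numbers exons as the annotation does. The numbering may differ, because the annotated start codon lies in exon 3, which makes up 2.89%.

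Pik3cb (ENSMUSG00000032462.14, chr9:99036654-99140621) encodes p110β, which can be reached by both tyrosine kinase and G protein-coupled receptors. CPM values were 63.6, 44.6 and 60.4 for WT, 101.0, 33.2 and 68.7 for δKO and 33.5, 25.5 and 33.9 for TKO, the libraries in the same order as above and hereafter. All TKO libraries lay below all WT libraries, and TKO overlapped δKO through δKO replicate 2. The TKO level differed by −0.86 (log2) from WT (SE 0.385, edgeR adjusted p = 1.00) and by −1.13 from δKO (SE 0.387, edgeR adjusted p = 0.465). Without δKO replicate 1 the difference from δKO was −0.72 (edgeR adjusted p = 0.427). DESeq2 fitted to TKO and WT alone gave −0.85 with an adjusted p of 0.0456, short of the 2-fold limit. Groups of 3 against 3 did not overlap for 14.4% of all genes in TKO against WT, and for 3 of the 10 PI3K genes (Pik3cb, Pik3cd and Pik3r6), all lower in TKO (7.47% of all genes in that direction, and 6.88% higher). Between TKO and δKO no PI3K gene was free of overlap, beside 6.98% of all genes that were higher and 4.74% that were lower in TKO (11.7% in either direction).

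Pik3cd (ENSMUSG00000039936.18, chr4:149649168-149702571) encodes the leukocyte-enriched p110δ and is deleted in the germline of both TKO and δKO. CPM values were 138.6, 98.2 and 112 for WT, 38.5, 91.2 and 71.1 for δKO and 71.2, 73.1 and 73.5 for TKO. All 6 libraries of the null genotypes lay below the 3 WT libraries, and transcripts counted on the gene remained in each of them. In a contrast added after the data were seen, the mean of TKO and δKO differed from WT by −0.74 on the log2 scale (SE 0.266, 95% interval −1.32 to −0.16, edgeR adjusted p = 0.999), and by −0.60 without δKO replicate 1 (edgeR adjusted p = 0.921). The gene was among the 4.13% of all genes, 2.55% lower, that had an unadjusted p under 0.05 in this contrast. A split of the 6 and the 3 libraries without overlap occurred for 2.04% of all genes (1.2% lower in the null genotypes). δKO alone differed from WT by −0.80 (SE 0.316, edgeR adjusted p = 0.699), and by −0.52 without δKO replicate 1 (edgeR adjusted p = 0.782). TKO and δKO differed from each other by 0.12 (95% interval −0.57 to 0.80), and by −0.16 without δKO replicate 1 (95% interval −0.70 to 0.37). The SD of the TKO libraries was 1.25 CPM against 26.6 in δKO.

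The intact catalytic gene Pik3cg, which encodes p110γ, had a lower mean in TKO than in WT, with overlapping libraries, and its highest values were in δKO. Pik3cg (ENSMUSG00000020573.16, chr12:32173473-32208659) had 214, 122 and 165 CPM for WT, 425, 162 and 231 for δKO and 121.1, 121.2 and 164 for TKO. TKO libraries lay within or just under the WT range, and δKO overlapped both groups with 1 library far above. TKO differed from WT by −0.30 (log2, SE 0.348), and the 95% interval from −1.06 to 0.46 leaves out a rise by more than 1.37-fold in this fit. Against δKO, Pik3cg was at −1.01 in TKO (95% interval −1.78 to −0.24, edgeR adjusted p = 0.465), and without δKO replicate 1 at −0.54 (edgeR adjusted p = 0.459). δKO against WT gave 0.71 (95% interval −0.054 to 1.47, edgeR adjusted p = 0.699), and 0.24 without δKO replicate 1. The direction was kept in the 22 alternative settings of each of these 3 comparisons.

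Among class IA regulatory genes, Pik3r1 followed the same order as Pik3cg. Pik3r1 (ENSMUSG00000041417.15, chr13:101680563-101768217), which encodes p85α and its shorter forms, had 259, 219 and 219 CPM for WT, 653, 222 and 320 for δKO and 206, 177 and 225 for TKO. TKO overlapped WT and, through replicate 3, δKO. On the log2 scale TKO differed from WT by −0.20 (95% interval −0.94 to 0.54) and from δKO by −0.98 (95% interval −1.72 to −0.23, edgeR adjusted p = 0.465), and δKO differed from WT by 0.78 (95% interval 0.036 to 1.52, edgeR adjusted p = 0.699). Without δKO replicate 1 the last 2 were −0.42 (edgeR adjusted p = 0.478) and 0.22 (edgeR adjusted p = 0.889).

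Pik3r2 (ENSMUSG00000031834.15, chr8:70768176-70776713) encodes p85β and was a minor transcript. CPM values were 5.93, 8.57 and 14.9 for WT, 48.0, 16.4 and 15.5 for δKO and 23.3, 20.4 and 9.56 for TKO. All δKO libraries lay above all WT libraries, by a narrow margin except for replicate 1, and TKO overlapped both. Pik3r2 was the only PI3K gene higher without overlap in δKO (4.13% of all genes were), and Pik3cd the only one lower (7.39%), beside 11.5% in either direction. δKO differed from WT by 1.44 (log2, SE 0.605, edgeR adjusted p = 0.699), and by 0.70 without δKO replicate 1 (edgeR adjusted p = 0.833). TKO differed from WT by 0.86 (SE 0.597, edgeR adjusted p = 1.00).

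Pik3r3 (ENSMUSG00000028698.13, chr4:116221618-116303056), which encodes the p55γ subunit, was the least expressed class IA regulatory gene. CPM values were 0.991, 4.08 and 3.58 for WT, 0, 0.445 and 5.31 for δKO and 2.93, 6.71 and 2.20 for TKO. δKO replicate 1 had no count, which at its depth allows up to 0.120 CPM (3 counts), and all groups overlapped. The SE of its log2 fold change between TKO and WT was 1.45, so that changes of several fold could not be detected for this gene.

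The class IB regulatory genes lie close together on chromosome 11. Pik3r5 (ENSMUSG00000020901.13, chr11:68432121-68497849) encodes p101. CPM values were 18.1, 15.9 and 18.3 for WT, 0.519, 23.9 and 4.24 for δKO and 3.02, 28.0 and 11.3 for TKO. WT libraries were close together and both other genotypes spread to either side of them, and TKO differed from WT by −0.31 (log2, SE 1.05). Pik3r6 (ENSMUSG00000046207.14, chr11:68503019-68552698) encodes the alternative subunit p84. CPM values were 4.85, 4.44 and 5.66 for WT, 0.279, 2.51 and 10.3 for δKO and 0.918, 1.31 and 1.12 for TKO, from 234 to 289 counts in WT and 45 to 53 in TKO. Every TKO library lay below every WT library, and δKO covered both.

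TKO differed from WT in Pik3r6 by −2.16 (log2, SE 1.10, 95% interval −4.57 to 0.26, edgeR adjusted p = 1.00), the most negative value of the 10 genes. DESeq2 gave −2.15 on all 9 libraries (adjusted p = 0.497) and called the gene when only TKO and WT were fitted (−2.15, adjusted p = 0.000382) and when δKO replicate 1 was left out (−2.15, adjusted p = 0.0251). From δKO the difference was −1.97 (edgeR adjusted p = 0.557), −2.52 without δKO replicate 1 (adjusted p = 0.306 by edgeR; −2.55 with an adjusted p of 0.00750 by DESeq2) and 0.015 with the replicate number as a block (edgeR adjusted p = 0.999). The unnumbered δKO library, which had the highest Pik3r6 level, shares no number and does not enter that last value. The summed level of neutrophil granule genes moved with Pik3r6. The sum of 12 such genes (Elane, Mpo, S100a8 and others, some of which progenitors also express) was 5561 to 12868 CPM in WT, 283 to 12803 in δKO and 171 to 3420 in TKO, and its log2 value correlated with that of Pik3r6 at r = 0.893 over the 9 libraries and 0.860 without δKO replicate 1, as a description. Mpo made up 15.03% to 69.6% of the sum in single libraries, and the sum without it correlated at r = 0.890 (0.866 without δKO replicate 1). Of the single genes, 9 had r from 0.700 to 0.859 with Pik3r6, while Ly6g, Ltf and Mmp8 had 0.371, 0.333 and −0.13. Without δKO replicate 1 the same 9 genes had 0.554 to 0.814, and Ly6g, Ltf and Mmp8 had 0.283, 0.405 and −0.033. The monocyte and macrophage sum correlated at r = 0.706 (0.613 without δKO replicate 1). The same correlation was 0.718 for Pik3cd and 0.670 for Pik3r5 (0.585 and 0.499 without δKO replicate 1), and it ran the other way for Pik3ca at −0.678 and Pik3r2 at −0.625 (−0.52 and −0.43 without it). Pik3cb and Pik3cg had 0.096 and −0.12 over the 9 libraries, and 0.648 and 0.596 without δKO replicate 1. With the log2 total count of the library, Pik3ip1 and Pik3cd correlated at 0.797 and 0.745 and Pik3r2 at −0.60 (0.735, 0.690 and −0.44 without δKO replicate 1), and Pik3r3 went from 0.036 to −0.76 without that library. With the number of genes detected, Pik3cd and Pik3r5 correlated at 0.698 and 0.644 and Pik3r1, Pik3r2 and Pik3cg at −0.67, −0.65 and −0.62 (0.459, 0.332, −0.35, −0.40 and −0.27 without it). The sort on cells without lineage markers would remove mature neutrophils. The part of these transcripts, of depth and of the marker sums given above in the Pik3r6 and Pik3cd differences was not tested, and fewer cells of a type and less RNA per cell cannot be told apart in bulk libraries.

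**Figure D2:**
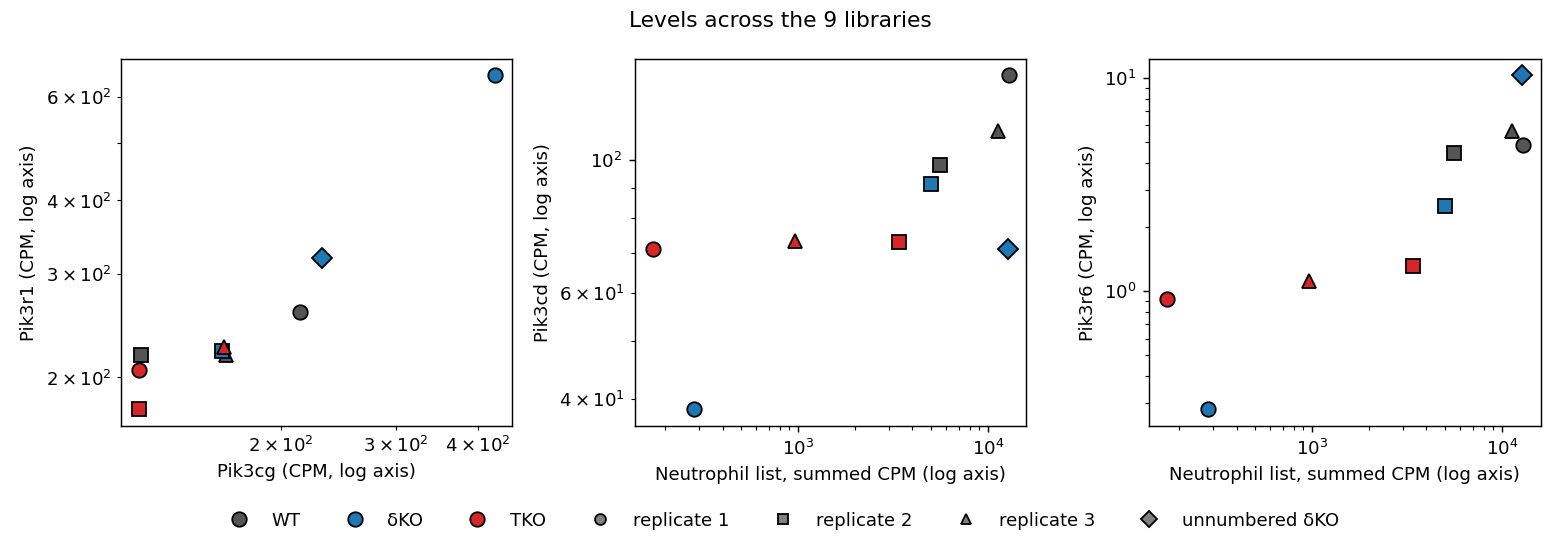
Levels over the 9 libraries on log axes (TMM-scaled CPM): Pik3r1 against Pik3cg, Pik3cd against the summed neutrophil list, and Pik3r6 against the same sum. Colors mark genotypes and symbols replicates. Pik3r1 rises with Pik3cg up to δKO replicate 1 at 425 and 653 CPM. The libraries with the lowest neutrophil sums (TKO 1, δKO 1, TKO 3) are low in Pik3r6, and TKO 2 is also low (1.31 CPM) at a higher sum of 3420 CPM.

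Pik3ip1 (ENSMUSG00000034614.14, chr11:3330401-3342971) encodes a membrane protein that binds p110 subunits and dampens their activity. CPM values were 49.4, 37.0 and 32.0 for WT, 27.7, 50.4 and 28.6 for δKO and 36.5, 43.6 and 40.9 for TKO, and all groups overlapped. TKO differed from WT by 0.031 (log2, 95% interval −0.72 to 0.78) and from δKO by 0.18, and δKO differed from WT by −0.15. Without δKO replicate 1 the last 2 were 0.027 and 0.00022.

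**Figure D3:**
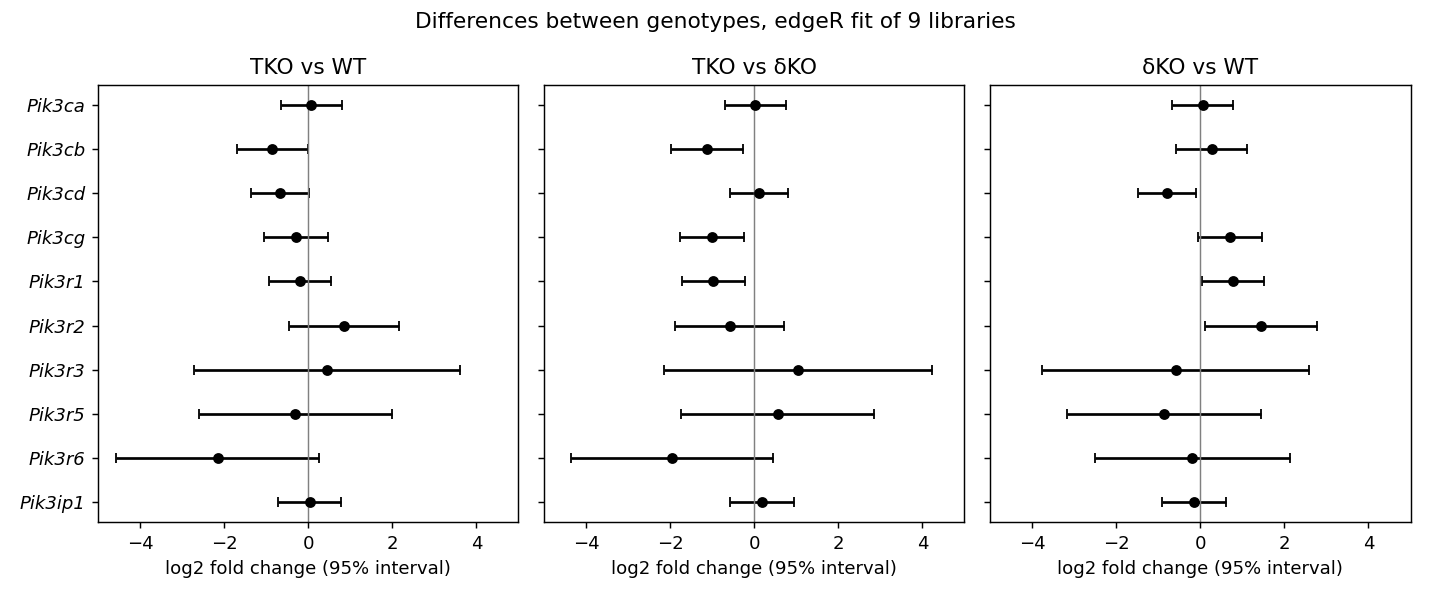
Log2 fold change of each PI3K gene (points) with its 95% interval (bars) from the edgeR fit of 9 libraries, for TKO and WT, TKO and δKO, and δKO and WT (first minus second). Intervals are widest for Pik3r3, Pik3r5 and Pik3r6; Pik3cb lies below 0 in both TKO comparisons, and Pik3cg and Pik3r1 lie near −1 in TKO against δKO only, with an interval across 0 in TKO against WT.

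The balance of subunits was described per library from the levels per kilobase, without a test. It includes transcripts counted on deleted genes (Pik3cd in TKO and δKO, and excised Pik3ca and Pik3cb in TKO). Shares, sums and ratios are therefore of transcripts and not of intact subunits, and Pik3cg is the only intact catalytic gene in TKO. Pik3cg made up 37.3 ± 3.25% of the summed catalytic level in WT (SD, n = 3), 52.9 ± 9.12% in δKO (48.0% without δKO replicate 1) and 41.4 ± 3.97% in TKO. Single libraries ran from 33.7% to 39.9% in WT, from 44.8% to 62.8% in δKO and from 38.0% to 45.8% in TKO, so that δKO lay above WT without overlap and TKO overlapped both. The Pik3cd share averaged 35.5 ± 0.820% for WT, 20.9 ± 13.1% for δKO (27.5% without replicate 1) and 30.2 ± 2.68% for TKO, with all 6 null libraries under the WT range of 34.9% to 36.4%. The Pik3cb share was 13.9% to 16.5% in WT, 10.7% to 17.8% in δKO and 9.99% to 12.3% in TKO, so that TKO lay under WT without overlap, also with the length of the longest transcript (12.02% to 14.3% in WT and 8.67% to 10.8% in TKO). The Pik3ca share was 9.90% to 15.48% in WT, 9.85% to 12.1% in δKO and 15.50% to 19.7% in TKO, and WT and TKO overlapped with the longest transcript (7.86% to 12.5% and 12.3% to 15.9%). The mean Pik3cg share was thus higher in TKO than in WT while the mean Pik3cg level was lower. The summed class IA catalytic level averaged 32.7 ± 4.93 CPM per kb for WT, 26.6 ± 3.09 for δKO and 22.5 ± 1.31 for TKO, and the TKO libraries (21.0 to 23.5) lay under those of WT (28.6 to 38.1).

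The summed class IA regulatory level did not follow the catalytic one. It averaged 25.9 ± 1.38 CPM per kb for WT, 46.2 ± 26.6 for δKO and 25.1 ± 1.43 for TKO, and the δKO mean rested on replicate 1 (76.3, against 26.0 and 36.4). The ratio of class IA catalytic to regulatory level came to 1.40, 1.16 and 1.21 for WT, 0.392, 0.913 and 0.719 for δKO and 0.886, 0.889 and 0.920 for TKO. All 6 libraries of the null genotypes lay below the 3 WT libraries, and the same held with the length of the longest transcript in place of the exon union (0.982 to 1.18 in WT, 0.311 to 0.777 in δKO, 0.740 to 0.766 in TKO). Within the regulatory subunits, Pik3r1 made up 88.7 ± 5.25% of the class IA level in WT, 85.5 ± 1.36% in δKO and 80.0 ± 8.07% in TKO. Pik3r5 made up 69.6 ± 1.56% of the class IB level in WT, with 21.1% to 86.1% in δKO and 68.2% to 93.3% in TKO.

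**Figure D4:**
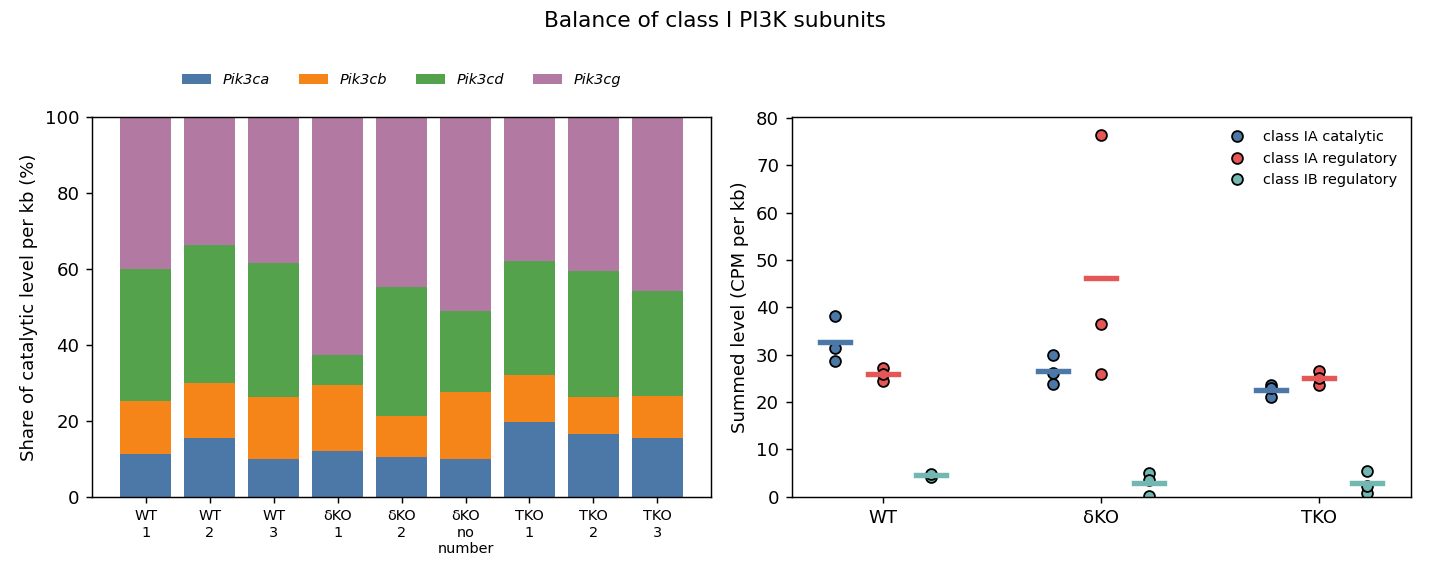
Left, share of each catalytic gene in the summed catalytic level per kb (percent) for the 9 libraries; right, summed level (CPM per kb) of class IA catalytic, class IA regulatory and class IB regulatory genes by genotype, with a point for each library and a line at the mean. With the exon union as length the class IA catalytic sum stands above the regulatory sum in every WT library and in no TKO library (with the longest transcript the ratio is under 1 in WT replicate 2, at 0.982), and δKO replicate 1 has the largest Pik3cg share (62.8%) and regulatory sum (76.3).

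Over the 9 libraries Pik3cg and Pik3r1 had the highest Pearson correlation of any pair of the 10 genes (log2 CPM, r = 0.953), and their Spearman rho of 0.883 was tied with that of Pik3cb and Pik3cg (both 0.833 without δKO replicate 1). Without δKO replicate 1 their r was 0.880, just under that of Pik3cb and Pik3r6 (0.889, against 0.077 over the 9 libraries). Pik3cb followed both of them (r = 0.857 with Pik3cg and 0.841 with Pik3r1; 0.754 and 0.810 without δKO replicate 1). Pik3cd and Pik3r2 ran in opposite directions (r = −0.847, and −0.673 without that library). The opposite course of Pik3r1 and Pik3r5 (r = −0.838) was looser without it (r = −0.429). These are descriptions over libraries that share genotype, depth and normalization.

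Among 10774 other genes that averaged 5 CPM or more, the gene most like each PI3K gene over the 9 libraries was also found. Pik3r1 was most like Uhmk1, a kinase of splicing factors (r = 0.999; 0.994 without δKO replicate 1, and so in the order of the values that follow). Pik3cd was most like Pnpla2, the triglyceride lipase ATGL (r = 0.994; 0.991), and Pik3r2 most like Mterf4, a mitochondrial ribosome assembly factor (r = 0.983; 0.970). Pik3cg was most like the zinc finger gene Hivep1 (r = 0.980; 0.941), Pik3r5 like Eif1b (r = 0.966; 0.906), Pik3ca like Uspl1 (r = 0.963; 0.942), Pik3cb like the antiproliferative gene Btg1 (r = 0.955; 0.923) and Pik3ip1 like Gm26514 (r = 0.946; 0.938). Each is the highest of many correlations, and δKO replicate 1 is an extreme library for all of the PI3K genes.

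Of 71 further genes that act around class I PI3K, 69 were tested and none was called by edgeR. The share at an unadjusted p under 0.05 was 7.25% between TKO and WT (3 higher, 2 lower), 10.1% between TKO and δKO (4 higher, 3 lower) and 7.25% between δKO and WT (4 higher, 1 lower), beside 4.19%, 10.2% and 7.01% of all genes. These shares were, without δKO replicate 1, 10.1%, 23.2% and 8.7%, beside 7.61%, 12.2% and 5.65% of all genes. DESeq2 called 1, 1 and 0 of them on all 9 libraries, beside 0.657%, 3.1% and 1.04% of all genes. Its counts without δKO replicate 1 were 2, 3 and 0, beside 1.95%, 5% and 0.796% of all genes (Gng12 and Gnb4 in TKO against WT, and Il3ra, Cxcr4 and Inppl1 in TKO against δKO). None of the 4 class II and III PI3K genes tested reached that p.

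The gene DESeq2 called in TKO against WT on all 9 libraries was Gng12, which encodes a Gγ subunit, part of the Gβγ pair that activates p110γ. Gng12 averaged 129 ± 31.7 CPM (SD, n = 3) for WT, 82.5 ± 7.71 for δKO and 56.2 ± 6.99 for TKO, and all TKO libraries lay under all δKO libraries and these under all WT libraries. TKO differed from WT by −1.20 (log2, SE 0.261; adjusted p = 1.00 by edgeR and 0.00529 by DESeq2). The Gβ gene Gnb4 averaged 27.7 ± 3.49 CPM for WT, 66.9 ± 46.8 for δKO (27.4 and 54.8 in the libraries other than replicate 1) and 71.7 ± 12.9 for TKO, with differences from WT of 1.37 in TKO (edgeR adjusted p = 1.00) and 1.27 in δKO (edgeR adjusted p = 0.699). The latter was 0.57 without δKO replicate 1, and in the same libraries DESeq2 called TKO against WT (1.38, adjusted p = 0.00427). The third Gβγ gene named by rule was Gng2, which was at 0.87 in TKO against δKO, and at 0.86 without δKO replicate 1 (edgeR adjusted p = 0.434).

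Of the 16 receptors, DESeq2 called Il3ra, a chain of the IL-3 receptor, in TKO against δKO (−1.79 on the log2 scale with an adjusted p of 0.465 by edgeR; DESeq2 adjusted p = 0.0229), and without δKO replicate 1 it was at −1.93 (edgeR adjusted p = 0.350). Csf3r, the G-CSF receptor, was at −1.08 in TKO against δKO (edgeR adjusted p = 0.465; −1.12 without δKO replicate 1) and −1.03 against WT (edgeR adjusted p = 1.00), and all TKO libraries were lower than those of both controls. Cxcr4 was at −1.50 in TKO against δKO (edgeR adjusted p = 0.465), and without δKO replicate 1 at −1.86 (adjusted p = 0.241 by edgeR and 0.0143 by DESeq2). Tek, the angiopoietin receptor TIE2, was at 1.07 in δKO against WT (edgeR adjusted p = 0.699), and at 0.66 without that library. Of the 19 adaptor and RAS genes tested, Irs2, an insulin receptor substrate that docks p85, averaged 53.2 ± 15.9 CPM for WT, 86.9 ± 27.2 for δKO and 113 ± 29.7 for TKO, and was at 1.09 in TKO against WT (edgeR adjusted p = 1.00). Gab1, another adaptor that docks p85, was at 0.92 and the RAS activator Sos1 at 0.66 in TKO against δKO (1.03 and 0.81 without δKO replicate 1). Of the 20 effectors and phosphatases, the SHIP2 gene Inppl1 was at 1.54 in TKO against δKO (edgeR adjusted p = 0.465), and without δKO replicate 1 at 1.76 (adjusted p = 0.306 by edgeR and 0.0420 by DESeq2). The AKT phosphatase gene Phlpp1 was at 1.66 in δKO against WT, and at 0.099 without δKO replicate 1.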

How the data were processed

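LT-HSC RNA from 9 libraries was analysed. The authors used Trim Galore and then STAR (genome mm10), and deposited counts per gene. How technical runs were joined and whether counting used strand are not given in the sources used here. The deposited normalized signal equals the counts divided by DESeq2 size factors, where columns matched a label, and was used in 1 alternative. Count columns were grouped by the genotype in their names. Gene identifiers were matched to GENCODE vM21 (47224 of 47643 without version), which gave coordinates and exon lengths.

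In R 4.3.3, edgeR 4.0.16 kept 18205 genes with filterByExpr (minimum count 10) and fitted quasi-likelihood models to all 9 libraries with TMM factors and no covariate. Benjamini-Hochberg adjustment covered all genes tested. Two-sided 95% intervals came from the same fit. Genes were called at an adjusted p under 0.05 and more than 2-fold. DESeq2 1.42.0 and limma 3.58.1 served as alternatives, with other scalings and filters, a replicate block, the number of genes detected as covariate and each library left out. After the data were seen, voom with sample quality weights, the mean of TKO and δKO against WT, DESeq2, pathway genes and correlations without δKO replicate 1 were added. Zero counts were given a limit of 3 counts, which covers counting error only.

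The PI3K genes and all lists were chosen with earlier results of these data known. The text names all 10 PI3K genes, pathway genes called or at most the 3 of a list with the smallest unadjusted p under 0.05, and for each PI3K gene with a mean of at least 5 CPM the gene most like it. The result of 1 gene that this rule names is not reported here. Pik3ip1, Pik3r1 and Pik3ca overlap annotated genes (Gm12592, Gm36638 and Gm37123), so shared reads cannot be placed. In simulated TKO and WT counts with 200 of 18205 genes changed, the test recovered 0 at 2-fold, 55 at 4-fold (2 false calls) and 123 at 16-fold (6 false calls).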

Additional observations from a re-analysis of the deposited data

How the results depend on the processing

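Every setting left the number of PI3K genes called at 0 except DESeq2 on the groups compared, which called 1 in TKO against WT (Pik3r6, −2.15; 3.08% of all genes were called), and DESeq2 without δKO replicate 1, which called 1 (Pik3r6) in TKO against WT and in TKO against δKO (−2.15 and −2.55; 1.95% and 5% of all genes). The replicate numbers did not pair the libraries (correlations of deviations from −0.036 to 0.083). With the number as a block, 1, 4 and 3 PI3K genes had an unadjusted p under 0.05 (4.81%, 6.47% and 5.52% of all genes), against 1, 3 and 3 without it (4.19%, 10.2% and 7.01%), no gene was called, and Pik3r6 in TKO against δKO turned to 0.015. The unnumbered δKO library forms a block of its own there, so that it adds nothing to that value. With the number of genes detected as covariate and with voom, no PI3K gene reached that p in TKO against δKO or δKO against WT. The gene at that p in TKO against WT (Pik3cb) was above it with RLE factors, with DESeq2 on all 9 libraries (unadjusted p = 0.0560) and with limma on the deposited values. It was also above it without WT replicate 1, WT replicate 3 or any 1 TKO library. Leaving out 1 library, the count in δKO against WT ran from 0 (without δKO replicate 1; 5.65% of all genes) to 5 (without δKO replicate 2; 16.1%). Upper-quartile factors moved the median of all genes by 0.14 in TKO against δKO and −0.15 in δKO against WT.

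Uncalled log2 fold changes changed sign in several settings, and the cause was not tested. Not all were near 0, since Pik3r2, Pik3r5 and Pik3r6 in TKO against δKO were at −0.59, 0.56 and −1.97 in the fit of 9 libraries. With the covariate, Pik3ca was at −0.017, Pik3r3 at −0.29 and Pik3r5 at 0.44 in TKO against WT, Pik3cd at −0.045 in TKO against δKO, and Pik3ca at −0.31, Pik3cb at −0.36 and Pik3ip1 at 0.093 in δKO against WT. With voom, Pik3cd was at −0.057, Pik3r5 at −0.27 and Pik3ip1 at −0.0095 in TKO against δKO, and Pik3ca at −0.22, Pik3cb at −0.20 and Pik3ip1 at 0.076 in δKO against WT. With DESeq2 without δKO replicate 1, Pik3cd was at −0.17 and Pik3r2 at 0.14 in TKO against δKO, and Pik3ca at −0.33, Pik3cb at −0.11, Pik3r3 at 0.037, Pik3r6 at 0.40 and Pik3ip1 at 0.015 in δKO against WT. Pik3ca in δKO against WT was at −0.14 with upper-quartile factors and −0.060 with at least 10 counts in every library. Leaving out 1 library at a time, TKO against WT ranged from −0.10 to 0.22 for Pik3ip1, −0.063 to 0.18 for Pik3ca, −1.29 to 0.17 for Pik3r5 and −0.17 to 0.78 for Pik3r3. TKO against δKO ranged from −0.16 to 0.40 for Pik3cd, −0.86 to 0.15 for Pik3r2, −0.42 to 2.56 for Pik3r5 and −0.18 to 0.43 for Pik3ca. δKO against WT ranged from −0.49 to 0.042 for Pik3ip1, −0.35 to 0.26 for Pik3ca, −0.14 to 0.60 for Pik3cb and −1.83 to 0.36 for Pik3r6. The δKO Pik3cg share ranged from 48.0% to 57.0% and the δKO ratio of class IA catalytic to regulatory level from 0.555 to 0.816. With the longest transcript as length, the Pik3cg share was 41.9% in WT and 46.5% in TKO, and the ratio 1.06 in WT and 0.755 in TKO. Precision was lowest for Pik3r3, Pik3r5 and Pik3r6, whose SEs were above 1 on the log2 scale in the fit of 9 libraries. Without δKO replicate 1 these SEs were 1.00, 0.740 and 0.773 in TKO against WT.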
